A study of Mus musculus with 33 samples.

Results

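A set of 7 genes, of the 54146 counted, was listed as lying at or near 0 counts in mouse microglia without germline Irf8 while being expressed in the controls. They are Spint1, Klk8, Tnfrsf17, Upk1b, P3h2, Slco2b1 and Rtn4rl1. The genes were chosen by their counts in the germline null groups and their controls, so those values are given as a description and without a test. The list did not hold in full. Spint1, Tnfrsf17, Upk1b and P3h2 were at 0 in at least 9 of the 10 germline null libraries and Klk8 in 6, with up to 19.0 CPM in the others, whereas Slco2b1 and Rtn4rl1 had counts in all 10.

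RNA was sequenced from microglia, the resident macrophages of the brain, sorted by fluorescence from C57BL/6 mice that the labels give as female, in 33 libraries of 10 groups. The germline experiment at 3 months held 4 WT and 4 IRF8KO libraries. At 9 months there were 3 libraries each of WT, IRF8KO, 5xFAD (genotype 5xFAD/WT, carrying the transgenes of an amyloid model) and 5xFAD/IRF8KO. A separate experiment at 3 months held 3 WT and 3 Batf3KO (Batf3-/-) libraries. The conditional experiment at 3 months held 3 libraries labelled IRF8flox, called flox here, and 4 labelled IRF8floxCx3cr1CreERT2, called Cre. Both of its groups had received tamoxifen on 5 days from postnatal day 12. In this line tamoxifen activates a Cre recombinase expressed from the Cx3cr1 locus, which is active in microglia and other Cx3cr1-expressing cells, and a Rosa26 EYFP reporter was used for sorting. The germline nulls lack Irf8 in all cells and not only in microglia.

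IRF8 is a transcription factor of the interferon regulatory factor family that binds DNA mostly with partners such as PU.1 and BATF proteins. It is required for several myeloid lineages and for the normal state of microglia, and its loss expands granulocytes. Slco2b1 is commonly used as a marker of microglia. The other genes are better known from epithelia, plasma cells, connective tissue or neurons.

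Depth ranged from 605376 to 18357762 counts in genes per library. Microglial marker genes took 6.9998% to 7.24% of counts in WT at 9 months, 0.424% to 1.008% in IRF8KO at 9 months and 0.761% to 0.954% in 5xFAD/IRF8KO, where Sall1 was at 0. In the WT and IRF8KO libraries at 3 months the marker share was 1.47% to 2.93% and 0.680% to 1.31%. Neutrophil markers took 6.52% to 16.6% of counts in the germline nulls against 0.867% to 5.40% in WT at 3 months and at most 0.000496% in WT and 5xFAD at 9 months. In bulk samples, fewer microglia and less RNA of a gene per microglial cell cannot be told apart. Irf8 itself did not mark the germline nulls by absence: it ranged from 13.3 to 171 CPM in them and from 218 to 797 CPM in their controls, where CPM is the usual depth-scaled unit, counts divided by the total counts in genes. The labels do not say which part of the gene was removed, so counts over the whole gene do not check the genotype. In the conditional experiment Irf8 lay at 1018 to 1172 CPM in the libraries labelled flox and at 382 to 457 CPM in replicates 2 to 4 labelled Cre. The library labelled Cre replicate 1 had 1217 CPM of Irf8, above every library labelled flox, and results from this experiment are given with and without it.

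Promoters of 4 of the 7 genes were found in the RefSeq table (GRCm38.p6), and those of Upk1b, P3h2 and Rtn4rl1 were not. The 250 bases before the start site are shown for Tnfrsf17 (chr16:11313559-11313808, plus strand) and Spint1 (chr2:119237110-119237359, plus strand), the genes with no count in any germline null library. Neither window overlaps an annotated exon. Capitals mark a match to an IRF direct repeat, GAAA followed by any 2 bases and GAAA.
Tnfrsf17: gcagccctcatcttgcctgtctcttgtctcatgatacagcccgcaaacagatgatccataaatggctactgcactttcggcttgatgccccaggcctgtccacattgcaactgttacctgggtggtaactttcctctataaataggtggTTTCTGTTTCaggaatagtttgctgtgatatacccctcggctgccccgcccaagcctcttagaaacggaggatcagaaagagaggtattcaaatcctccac
Spint1: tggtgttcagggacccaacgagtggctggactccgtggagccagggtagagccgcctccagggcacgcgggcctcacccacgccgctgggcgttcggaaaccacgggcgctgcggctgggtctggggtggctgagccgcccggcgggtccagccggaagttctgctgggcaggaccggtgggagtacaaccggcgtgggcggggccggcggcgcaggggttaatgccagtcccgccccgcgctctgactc
The Tnfrsf17 match lies on the opposite strand, beginning 101 bases before the start site, and 2.98% of the 32851 promoters in the table held such a match. Also searched on both strands were an ETS-IRF composite (GGAA, any 2 bases, GAAA; in 2.3% of promoters), AP-1 (TGANTCA, 6.75%) and a PU.1 core (GAGGAAGT, 2.44%). A pair of AP-1-IRF composites that contain the AP-1 letters was searched too, GAAA directly before TGANTCA (0.1%) and TTTC, any 4 bases, then TGANTCA (0.0974%). None of these occurred in the 6 promoter windows found for Spint1, Klk8, Tnfrsf17 and Slco2b1. The windows differed in base composition, with 72.8% G or C for Spint1 and 49.2% for Tnfrsf17 against 53.2% over all promoters.

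Of the genes whose mean reached 5 CPM in each of WT at 3 months, WT at 9 months and 5xFAD, 7 of 8330 (0.084%) had a mean of at most 2% of the control in all 3 germline null groups. Spint1, Upk1b and Tnfrsf17 were among them. The other four were Gm27008 (an antisense RNA at 5.16 CPM in WT at 3 months), Ly86 (MD-1, a partner of the receptor CD180, at 1117 CPM), A830008E24Rik (31.7 CPM) and Naalad2 (6.44 CPM). The nearest gene inside the limit was Naalad2, at 1.92% in the group where it was highest, and the nearest outside were Jag2 at 2.05% and Duoxa1 at 2.23%. Batf3, the transcription factor gene deleted in the separate experiment, reached 2.74%. P3h2 reached 4.98% and Klk8 7.74%, while Slco2b1 and Rtn4rl1 reached 43.5% and 46.1%, each in its highest group. At this limit 4 of the 7 genes passed in IRF8KO at 3 months, where 0.495% of all genes did. In IRF8KO at 9 months 5 of 7 passed against 2.74% of genes, and in 5xFAD/IRF8KO 5 of 7 against 2.19%. These counts follow from the choice of the genes.

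**Figure D1:**
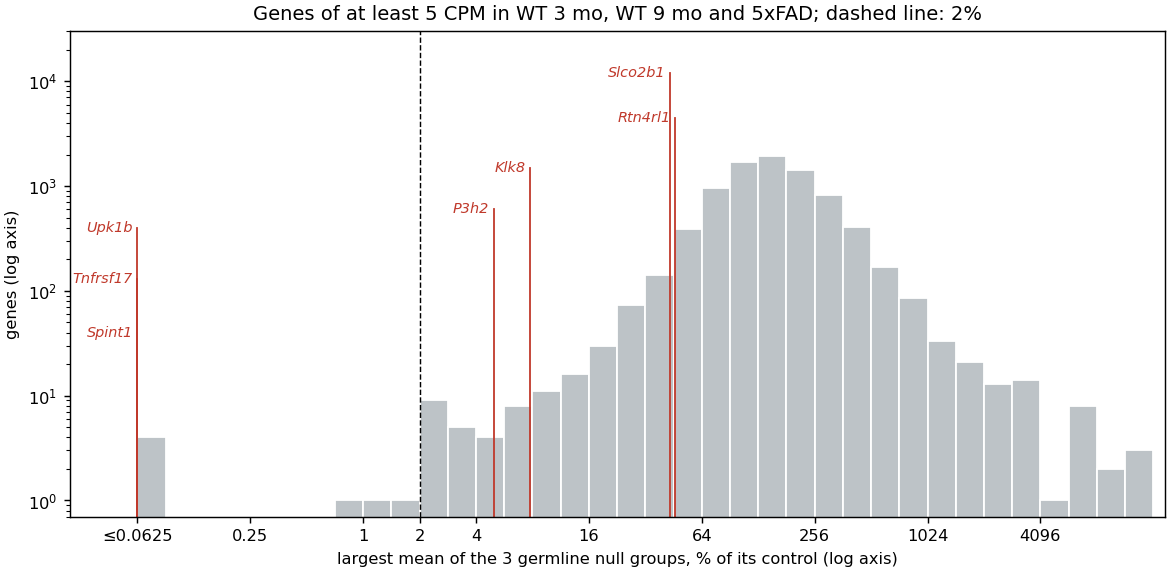
Histogram of the highest germline null mean as percent of its control for the 8330 genes with at least 5 CPM in the 3 control groups (both axes log), with red lines at the 7 genes and a dashed line at 2%. Spint1, Tnfrsf17 and Upk1b stand at the left edge, where the lowest values are pooled, P3h2 and Klk8 stand between 4% and 8%, and Slco2b1 and Rtn4rl1 stand within the lower flank of the distribution.

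Spint1 (ENSMUSG00000027315.13, chr2:119237362-119249527, plus strand) encodes HAI-1, a Kunitz-type inhibitor of the pericellular serine proteases matriptase and hepatocyte growth factor activator. Its level was 72.4, 90.7, 69.4 and 32.5 CPM in the WT libraries at 3 months, 135, 157 and 337 CPM in WT at 9 months, and 235, 251 and 23.3 CPM in 5xFAD. All 10 germline null libraries had 0 counts of 92259446 counts in genes, which allows up to 0.0325 CPM. Against the limit of 3 counts over each null group, the level was at least 690-fold lower in IRF8KO at 3 months, 1645-fold at 9 months and 2122-fold in 5xFAD/IRF8KO. The third 5xFAD library lay far under the other two and still above every null library. Floors and intervals cover counting error only, since the reads carry no molecular identifiers.

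Klk8 (ENSMUSG00000064023.4, chr7:43797577-43803826, plus strand) encodes neuropsin, a secreted serine protease of the kallikrein family. At 3 months Klk8 read 94.1, 28.5, 44.3 and 67.0 CPM in the WT libraries, while the IRF8KO libraries held 0, 0.166, 0 and 1.51 CPM. The 9-month values were 86.7, 133 and 94.2 CPM for WT against 19.0, 0 and 5.30 CPM for IRF8KO, a 12.9-fold lower mean. 5xFAD had 143, 182 and 213 CPM and 5xFAD/IRF8KO had 0 counts in all 3 libraries, at least 2239-fold lower. Groups did not overlap in any of these pairs, as was so in that direction for 7.29% of genes at 3 months, 29.4% at 9 months and 25.7% in 5xFAD/IRF8KO, but Klk8 was low rather than absent in 2 IRF8KO libraries at 9 months. Of its exon bases 24.8% are shared with 2310002F09Rik on the other strand, and the counts were made without strand.

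Of 20 other pericellular proteases, inhibitors and targets, 10 passed the filter on low counts at 9 months, where 3 rose and 1 fell in IRF8KO (edgeR's quasi-likelihood test with Benjamini-Hochberg adjustment, as for all gene calls below). Over all genes 28.3% were called in that comparison, 7.39% in IRF8KO at 3 months and 27.8% in 5xFAD/IRF8KO, and 8.68%, 3.24% and 9.72% were called lower. The median of the list was a log2 fold change of 0.52 against 0.25 over all genes. Serpine2, which encodes protease nexin-1, went from 752 CPM in WT to 264 CPM in IRF8KO (log2 fold change -1.10, SE 0.215, adjusted p = 0.00261). Spint2, which encodes the related inhibitor HAI-2, was at 0 in WT and at 46.2 CPM in IRF8KO. In 5xFAD/IRF8KO 3 rose and 2 fell of 10, with Serpine2 at 137 CPM against 776 CPM. At 3 months 1 rose and 1 fell of 9. Spint2 was not called there, at 47.4 CPM in IRF8KO against 70.9 CPM in WT (log2 fold change -0.63, SE 0.528). At 9 months neutrophil markers were high in the same libraries as Spint2, and their part in its level was not tested.

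Tnfrsf17 (ENSMUSG00000022496.5, chr16:11313812-11320074, plus strand) encodes BCMA, a receptor for the TNF-family ligands BAFF and APRIL that is known best from plasma cells. It had 48.6, 18.9, 16.6 and 15.2 CPM in WT at 3 months, 28.5, 26.9 and 26.4 CPM in WT at 9 months, and 25.5, 34.2 and 34.7 CPM in 5xFAD. No germline null library had a count, so the level was at least 258-fold, 214-fold and 393-fold lower in the 3 groups. Apart from WT replicate 1 at 3 months, its control libraries lay between 15.2 and 34.7 CPM. In WT at 9 months the B and plasma cell marker list took 0.0834% to 0.0894% of counts. Its members Cd79a, Ms4a1, Jchain, Mzb1 and Sdc1 were at 0 in every library there, while Ighm (743 to 811 CPM), Prdm1 (50.8 to 83.9 CPM) and Cd79b (15.8 to 28.1 CPM) were not. In WT at 3 months the first 5 had counts, and the list took 0.0467% to 0.160% of counts there and 0.0397% to 0.0513% in IRF8KO. The part of B-lineage cells in the level of Tnfrsf17 was not tested.

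The ligands, other receptors and adaptors of this pathway gave few calls. Of 10 listed, 10 passed the filter at 9 months, with 1 higher and 1 lower in IRF8KO, and the median log2 fold change was -1.42 against 0.25 over all genes. Tnfrsf13b, which encodes the related receptor TACI, was at 212 CPM in WT and 43.7 CPM in IRF8KO (log2 fold change -1.80, SE 0.381, adjusted p = 0.00424), so it was lower but not lost. In 5xFAD/IRF8KO Tnfrsf13b was the only call among 10 (log2 fold change -1.95, adjusted p = 0.00276). At 3 months 0 of 9 passed the test.

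Upk1b (ENSMUSG00000049436.5, chr16:38773184-38800328, minus strand) encodes uroplakin 1B, a tetraspanin of the plaques that line the bladder. WT libraries gave 29.1, 84.5, 90.1 and 11.4 CPM at 3 months, against 648, 1019 and 550 CPM at 9 months. 5xFAD had 565, 719 and 645 CPM. The germline nulls held 6 counts in all, every one in IRF8KO replicate 3 at 9 months (0.837 CPM), so the level was at least 560-fold lower at 3 months, 2648-fold lower at 9 months and at least 8032-fold lower in 5xFAD/IRF8KO. Its 9-month controls did not overlap any WT library at 3 months, where age and library set cannot be told apart. All 8 epithelial markers but one were at 0 in WT at 9 months.

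Among 15 other uroplakins and tetraspanins, 11 passed the filter. In IRF8KO at 9 months 1 rose and 5 fell, with a median of -0.90 against 0.25 over all genes, and in 5xFAD/IRF8KO 8 fell and none rose. Tspan4 fell from 228 to 19.8 CPM at 9 months (log2 fold change -3.18, SE 0.386, adjusted p = 9.29e-05), and Cd81, a partner of many surface receptors, fell from 4941 to 1280 CPM. Cd63, a lysosomal tetraspanin, rose from 281 to 727 CPM. At 3 months 0 of 11 passed the test.

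P3h2 (ENSMUSG00000038168.5, chr16:25959288-26105784, minus strand) encodes a prolyl 3-hydroxylase that modifies collagen chains in the endoplasmic reticulum. It was the lowest of the genes at 3 months, with 3.47, 9.32, 8.03 and 16.3 CPM for the WT libraries against 0, 0, 0 and 1.85 CPM for IRF8KO, a 20.1-fold difference of means. At 9 months the WT libraries gave 141, 117 and 112 CPM and the 5xFAD libraries 79.5, 59.5 and 45.1 CPM. All 6 germline null libraries at 9 months had 0 counts, at least 968-fold and 767-fold lower. The 11 counts of IRF8KO replicate 4 at 3 months were the only ones in the nulls. Exons of Gm4524 and AU015336 share 28.4% of its exon bases. Of 15 other collagen hydroxylases and partners, 10 passed the filter at 9 months and 4 fell in IRF8KO, with none higher and a median of -1.53. These were Plod1 and Plod3, which hydroxylate lysines (483 to 52.9 CPM and 228 to 30.004 CPM), P4ha1 (347 to 86.4 CPM) and P3h3, a related prolyl 3-hydroxylase (25.01 to 1.89 CPM). In 5xFAD/IRF8KO 2 of 10 fell, Plod1 and P3h3, and at 3 months 0 of 10 passed the test.

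Slco2b1 (ENSMUSG00000030737.17, chr7:99657804-99711340, minus strand) encodes an organic anion transporter of the plasma membrane. The 3-month levels were 196, 204, 446 and 438 CPM in the WT libraries while IRF8KO gave 103, 68.5, 200 and 187 CPM, so that the groups overlapped and the means differed 2.30-fold. WT at 9 months gave 2170, 1874 and 2359 CPM against 61.5, 58.6 and 83.0 CPM for IRF8KO, a 31.5-fold difference. The 5xFAD libraries had 1086, 850 and 955 CPM and 5xFAD/IRF8KO had 94.1, 99.9 and 104 CPM, a 9.71-fold difference. Slco2b1 was thus lower and never near 0. Of 12 other members of the Slco family only 5 passed the filter at 9 months, where 3 rose and 1 fell. Slco4c1 was at 0 in WT and at 120 CPM in IRF8KO at 9 months, and rose from 1.17 to 48.1 CPM at 3 months, the only call of 5 there. Slco4a1 fell from 271 to 59.9 CPM at 9 months. In 5xFAD/IRF8KO 4 of 5 rose and none fell.

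Rtn4rl1 (ENSMUSG00000045287.6, chr11:75193783-75267769, plus strand) encodes NgR3, a lipid-anchored receptor of the Nogo receptor family. The WT libraries at 3 months gave 37.7, 43.7, 107 and 104 CPM against 17.7, 24.6, 40.02 and 52.7 CPM for IRF8KO, with overlap and the IRF8KO mean at 46.1% of WT. At 9 months the levels were 470, 409 and 501 CPM for WT against 7.80, 7.22 and 6.14 CPM for IRF8KO, a 65.2-fold difference. 5xFAD had 275, 250 and 192 CPM and 5xFAD/IRF8KO 36.6, 20.8 and 32.5 CPM, a 7.98-fold difference. The low and high WT libraries at 3 months were the same for Rtn4rl1 and Slco2b1. Of 13 other Nogo receptors, ligands and co-receptors 9 passed the filter, and at 9 months 5 rose and none fell in IRF8KO. They included Omg, which encodes oligodendrocyte myelin glycoprotein (0.0579 to 37.8 CPM), and Rtn1 (128 to 324 CPM). Oligodendrocyte markers moved with them, from 0.0237% to 0.0273% of counts in WT to 0.730% to 1.12% in IRF8KO, and their part was not tested. In 5xFAD/IRF8KO 4 of 9 rose, and at 3 months 2 of 9 fell, Rtn1 and Rtn4.

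**Figure D2:**
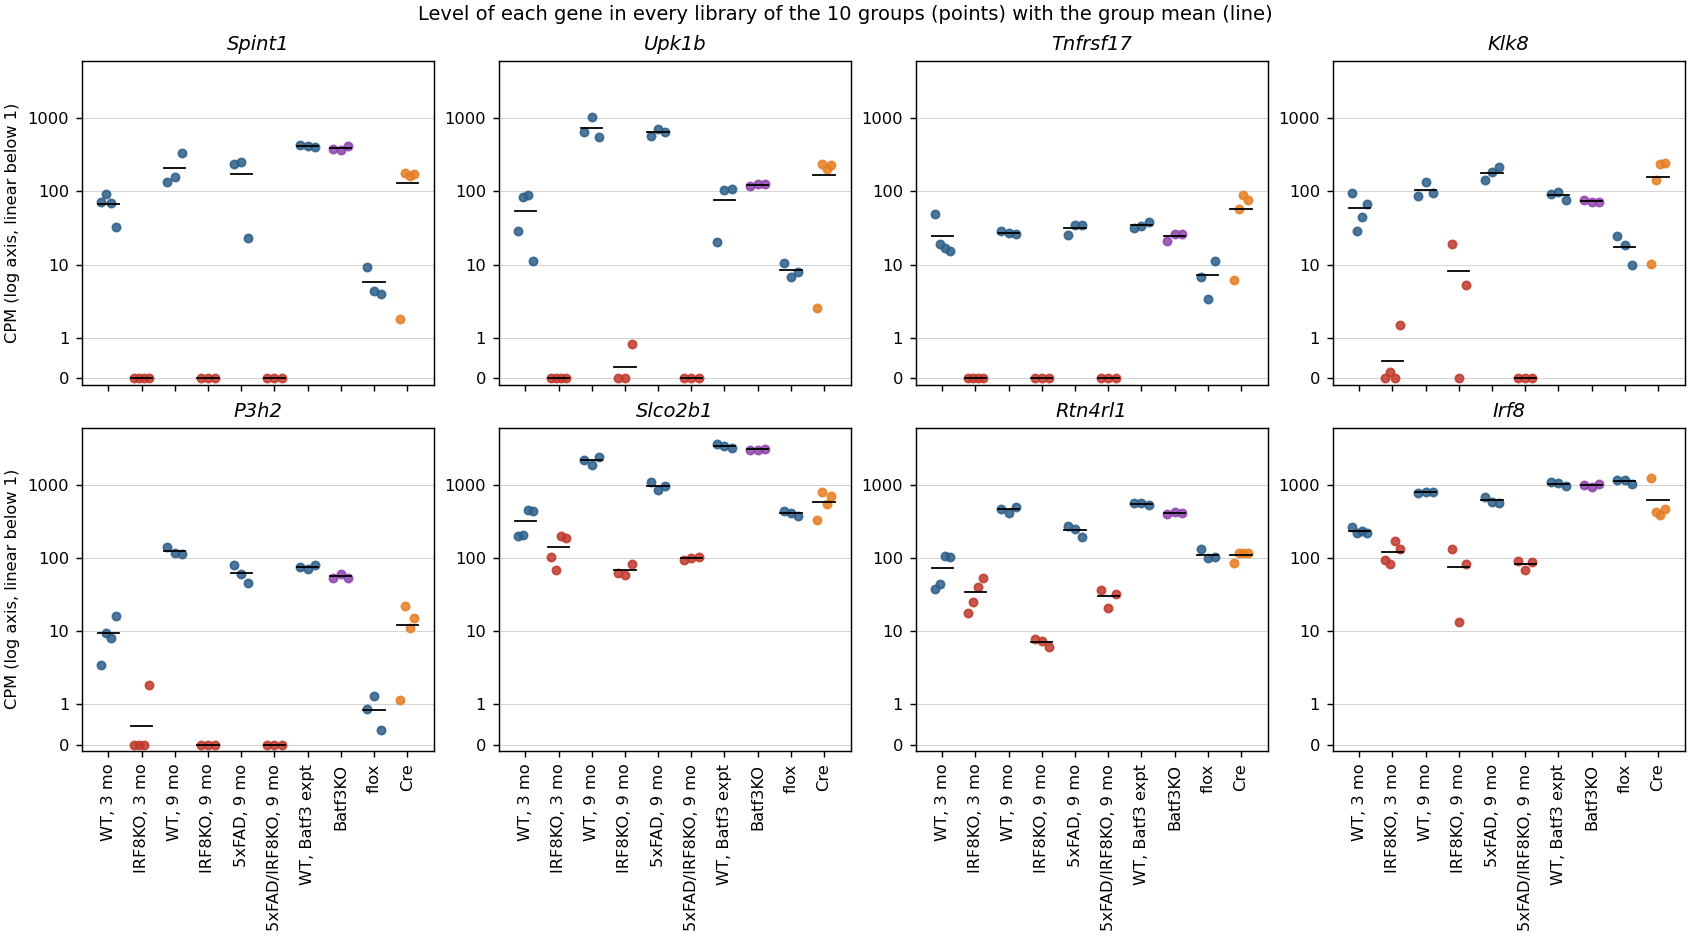
Level in CPM (log axis, linear below 1) of the 7 genes and Irf8 in each of the 33 libraries, by group, with a line at each group mean. Germline nulls (red) sit at 0 for Spint1 and Tnfrsf17, between 58.6 and 200 CPM for Slco2b1, and the libraries labelled Cre (orange) split into 1 low and 3 high points for 5 of the genes.

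Levels were also set against the microglial markers. Per 10000 counts of the 12 microglial marker genes, Slco2b1 in the germline nulls was at 83.3% of its control at 3 months, 33.05% at 9 months and 78.6% in 5xFAD/IRF8KO. Rtn4rl1 was at 89.0%, 16.5% and 95.5%. Irf8 itself, counted over the whole gene, was at 112%, 78.0% and 102% of its control on this scale. On the same scale Spint1 and Tnfrsf17 stayed at 0 in every pair, Upk1b reached 0.318% at 9 months, and P3h2 7.61% at 3 months. Klk8 was at 57.1% at 9 months, 1.34% at 3 months and 0 in 5xFAD/IRF8KO. Slco2b1 and Rtn4rl1 were thus at 78.6% to 95.5% of their controls at 3 months and in 5xFAD/IRF8KO on the marker scale, while Spint1, Tnfrsf17 and Upk1b were at 0.318% or less in every pair. A gene with 0 counts stays at 0 on any scale. The scaling could therefore not move Spint1 or Tnfrsf17, nor Upk1b outside IRF8KO at 9 months. These are also the values by which the genes were chosen. None of the 7 genes is in the marker list. The markers themselves differed unevenly at 3 months. Fcrls was at 1358 CPM in IRF8KO against 1456 CPM in WT, and Csf1r at 2366 against 2543 CPM. P2ry12 was at 329 against 2436 CPM, and Sall1 at 1.67 against 42.5 CPM. The marker-scaled percentages therefore depend on which markers are counted.

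**Figure D3:**
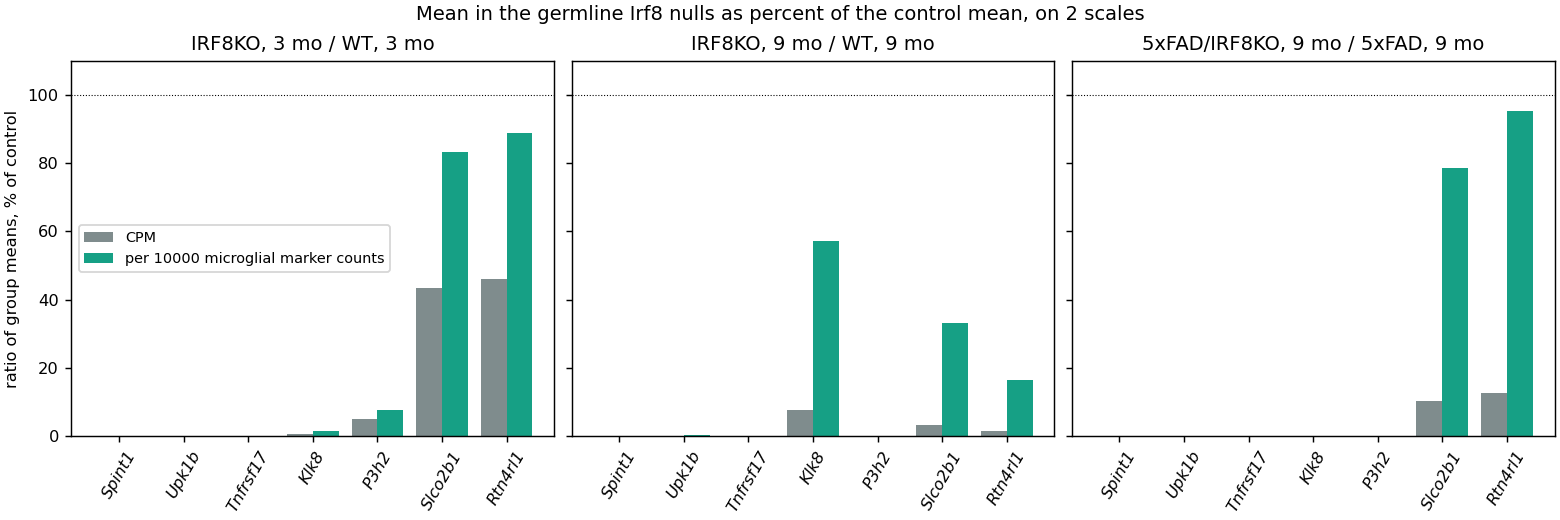
Mean of each germline null group as percent of its control mean, from CPM (grey) and from levels per 10000 microglial marker counts (green). Slco2b1 and Rtn4rl1 rise from 43.5% and 46.1% to 83.3% and 89.0% at 3 months on the marker scale, and Spint1 and Tnfrsf17 stay at 0 on both. Genes with 0 counts stay at 0 on any scale.

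Per kb of exon, which allows levels of different genes to be compared, Slco2b1 and Upk1b were highest in WT at 9 months, at 358 ± 40.99 and 354 ± 118 CPM per kb (SD, n = 3), and did not differ beyond their spread. Rtn4rl1 followed at 130 ± 13.2 CPM per kb. Spint1 (75.8 ± 40.03) and Klk8 (68.0 ± 16.2) overlapped, as did Tnfrsf17 (33.5 ± 1.32) and P3h2 (33.1 ± 4.05). In WT of the Batf3 experiment the order was Slco2b1 at 564 ± 32.7 CPM per kb, then Rtn4rl1 at 156 ± 6.91 and Spint1 at 150 ± 5.60, which overlapped, and Klk8 at 57.7 ± 6.79. Tnfrsf17 was at 41.9 ± 3.83 and P3h2 at 20.2 ± 1.14, without overlap. Upk1b, at 36.5 ± 23.3, overlapped Klk8 and Tnfrsf17 and spanned P3h2, with 1 library at 9.59 CPM per kb under every P3h2 library. Exon lengths included bases shared with other genes, 24.8% for Klk8, 28.4% for P3h2 and 9.21% for Slco2b1. Ambiguous reads were counted apart, so these genes may read low per kb. Their place in the order, and the overlap of P3h2 with Tnfrsf17, may depend on this.

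In the Batf3KO experiment, where the gene of another transcription factor was deleted, none of the 7 genes came near 0. Batf3 had fallen to 0.487 ± 0.0440 CPM (SD, n = 3) from 24.6 ± 1.96 CPM in WT, and Irf8 was at 974 ± 37.2 against 1028 ± 56.5 CPM. Of the 7 genes 2 were called, both lower, where 3.83% of the 13128 genes tested were called and 2.42% were called lower. All 7 had passed the filter on low counts.

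Rtn4rl1 fell from 562, 566 and 522 CPM in WT to 401, 420 and 410 CPM in Batf3KO, a log2 fold change of -0.42 (SE 0.0736, adjusted p = 0.00624), with no overlap. P3h2 fell from 75.0, 71.1 and 79.6 CPM to 53.0, 60.4 and 53.6 CPM, a log2 fold change of -0.43 (SE 0.0989, adjusted p = 0.0281), also with no overlap. Both stayed well above 0, at 74.6% and 74% of the WT mean.
Tnfrsf17 gave 31.4, 33.6 and 37.6 CPM for WT against 21.03, 26.3 and 26 CPM for Batf3KO (log2 fold change -0.48, SE 0.139, adjusted p = 0.0781). Klk8 (-0.28, adjusted p = 0.179), Slco2b1 (-0.16, adjusted p = 0.222) and Spint1 (-0.10, adjusted p = 0.543) did not pass either. In 5 of the 7 genes every Batf3KO library lay under every WT library, as it did for 12.6% of all genes. Upk1b libraries of Batf3KO lay at 117, 125 and 124 CPM, above the WT libraries at 20.0, 103 and 106 CPM (log2 fold change 0.69, SE 0.383, adjusted p = 0.366), as was so for 11.4% of genes. Calls depended on the method: DESeq2 also called Tnfrsf17 lower, and edgeR without a filter on low counts also called Upk1b higher.
The P3h2 call was lost when any one of the 6 libraries was left out, with log2 fold changes of similar size. The Rtn4rl1 call was lost without WT replicate 2 (-0.40) or Batf3KO replicate 1 (-0.39). Of the 4 other genes near 0 in all germline nulls, Naalad2 went from 21.4 to 1.20 CPM in Batf3KO (log2 fold change -4.13, adjusted p = 7.82e-07), and the rest did not pass. In the pathway lists Tnfsf13b, which encodes BAFF, was at 27.2 CPM in WT and 3.13 CPM in Batf3KO (log2 fold change -3.10, SE 0.225, adjusted p = 3.22e-06), the only call of 8 in its list. Of the other lists 1 of 11 collagen genes and 1 of 1 Slco gene rose, 1 tetraspanin rose and 1 fell of 11, and none of 6 protease or 7 Nogo receptor genes passed.

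In the conditional experiment 5 of the genes were low in the libraries labelled flox and high in 3 of the 4 labelled Cre. Spint1 had 9.24, 4.31 and 3.91 CPM in the libraries labelled flox and 1.80, 179, 161 and 172 CPM in those labelled Cre. Upk1b had 10.5, 6.68 and 7.82 CPM against 2.58, 238, 203 and 230 CPM. In each case replicate 1 labelled Cre was the lowest of all 7 libraries, and the others were the highest.
Tnfrsf17 had 6.71, 3.34 and 11.4 CPM in the libraries labelled flox and 6.18, 58.2, 89.4 and 75.6 CPM in those labelled Cre. Klk8 had 24.6, 18.3 and 9.97 CPM against 10.1, 143, 238 and 240 CPM. P3h2 had 0.886, 1.29 and 0.378 CPM against 1.16, 21.9, 11.1 and 14.9 CPM. For these genes replicate 1 labelled Cre lay inside the range of the libraries labelled flox.
Slco2b1 had 439, 409 and 372 CPM in the libraries labelled flox and 325, 785, 545 and 689 CPM in those labelled Cre, a smaller spread. Rtn4rl1 had 131, 99.0 and 103 CPM against 84.1, 117, 117 and 115 CPM, and its ranges overlapped. Batf3 followed the first 5 genes, at 4.56, 4.31 and 2.02 CPM against 1.42, 33.04, 70.6 and 41.7 CPM.

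With all 7 libraries as labelled, edgeR called 0 of 15512 genes (0%) and 0 of the 7 genes, although 5 of the 7 and 1407 of all genes (9.07%) had an unadjusted p under 0.05. DESeq2 called 3 of the 7, Spint1, Upk1b and P3h2, all higher, with 160 genes called in all and 0.733% of genes called higher. The edgeR log2 fold changes were 4.57 for Spint1 (SE 1.01), 4.44 for Upk1b (SE 0.979), 3.11 for Tnfrsf17 (SE 0.690), 3.25 for Klk8 (SE 0.771) and 3.88 for P3h2 (SE 0.812), with adjusted p from 0.190 to 0.193. Slco2b1 was at 0.60 (SE 0.287) and Rtn4rl1 at 0.03 (SE 0.194).

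Without the library labelled Cre replicate 1, 6 of the 7 genes were called, all higher in the libraries labelled Cre, where 6.24% of 15264 genes were called and 3.74% were called higher. Spint1 was at 171 ± 8.84 CPM (SD, n = 3) against 5.82 ± 2.97 CPM, a log2 fold change of 4.97 (SE 0.260, adjusted p = 1.1e-10 in edgeR). Upk1b was at 224 ± 18.2 against 8.34 ± 1.97 CPM, a log2 fold change of 4.85 (SE 0.215, adjusted p = 1.72e-11 in edgeR). P3h2 (4.26, SE 0.421), Klk8 (3.64, SE 0.278) and Tnfrsf17 (3.49, SE 0.286) were higher by more than 10-fold each on the fitted scale. Slco2b1 was higher by 0.82 (SE 0.191, adjusted p = 0.00978), and Rtn4rl1 was at 0.16 (SE 0.165, adjusted p = 0.764). The log2 fold change of Irf8 was -1.32 (SE 0.186, adjusted p = 5.81e-05). In the germline nulls these genes were lower than in the controls, and in this experiment they were higher in the group labelled as deleted. Labels were kept as given. Whether the labels of this experiment match its libraries was not tested, and if they were exchanged the sign of every difference between the libraries labelled Cre and flox would turn.

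Microglial markers took 5.12% to 5.34% of counts in the libraries labelled flox and 4.42% to 5.09% in those labelled Cre, or at most 4.88% without replicate 1. Neutrophil markers were at most 0.0112% in every library of the experiment. Other marker lists differed between the libraries labelled flox and replicates 2 to 4 labelled Cre without overlap. Border macrophage markers took 0.0537% to 0.0651% of counts in flox, 0.0577% in Cre replicate 1 and 0.0162% to 0.0352% in the other Cre libraries. Plasmacytoid dendritic cell markers took 0.0462% to 0.0589%, 0.0622% and 0.0188% to 0.0307%. B and plasma cell markers took 0.0246% to 0.0365%, 0.0292% and 0.0535% to 0.0584%. Conventional dendritic cell markers, which include Batf3, took 0.00247% to 0.00308%, 0.00256% and 0.00501% to 0.00908%. Astrocyte markers took 0.0156% to 0.0188%, 0.0149% and 0.0222% to 0.0368%. Monocyte markers took 0.000915% to 0.00129%, 0.000902% and 0.00147% to 0.00163%. Epithelial markers took 0.000108% to 0.000151%, 0.000103% and 1.22e-05% to 8.11e-05%. Their part in the differences of the 7 genes was not tested. Of the 4 other genes near 0 in all germline nulls, 3 were also called higher without replicate 1: Naalad2 (log2 fold change 3.54), A830008E24Rik (2.02) and Ly86 (1.10). Gm27008 was not (-0.76, adjusted p = 0.62). In the pathway lists Tnfsf13b rose from 6.18 to 29.3 CPM and Tnfrsf13b from 56.1 to 88.4 CPM, 3 of 8 members of that list being higher and none lower. Of the protease list 1 rose and 1 fell of 8, St14, which encodes matriptase, falling from 20.2 to 6.85 CPM and Serpine2 rising from 513 to 731 CPM. Of the collagen list 1 of 13 fell, P4ha2, from 29.9 to 3.74 CPM. Of the tetraspanins 1 rose and 2 fell of 11, Cd63 falling from 2853 to 1109 CPM, and no member of the Slco (4 tested) or Nogo receptor (9 tested) lists was called.

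**Figure D4:**
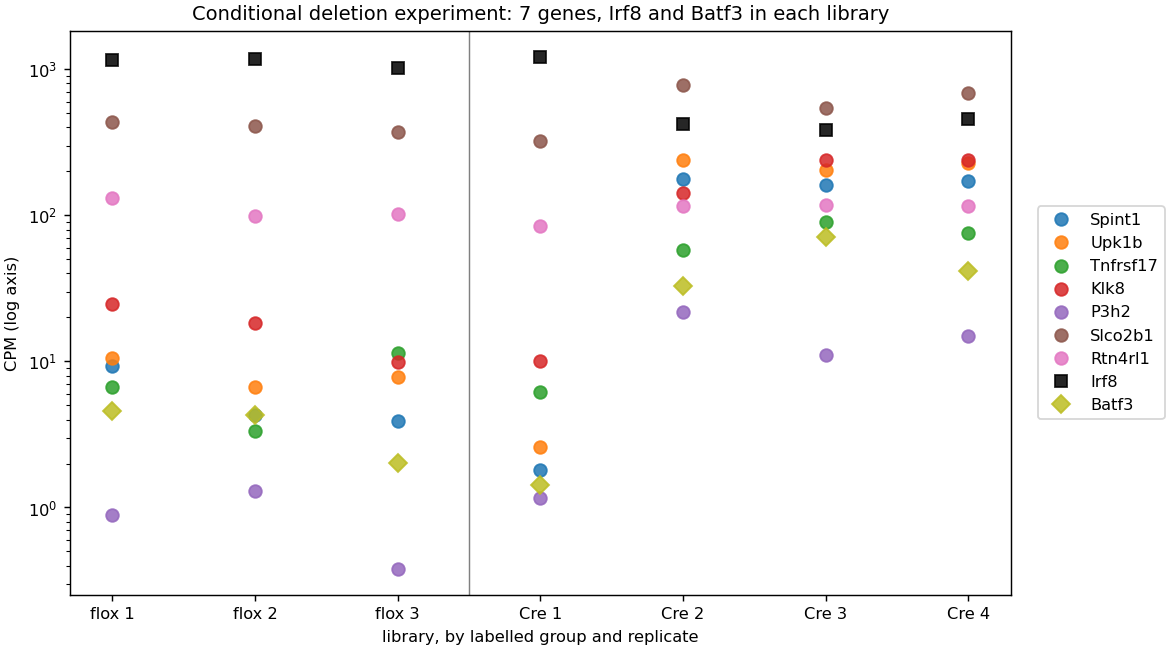
Level in CPM (log axis) of the 7 genes, Irf8 and Batf3 in each of the 3 libraries labelled flox and 4 labelled Cre. Replicates 2 to 4 labelled Cre show Spint1 at 161 to 179 CPM with Irf8 at 382 to 457 CPM, and replicate 1 shows 1.80 CPM with Irf8 at 1217 CPM.

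The 5xFAD groups that carry Irf8 allowed the genes to be followed in an amyloid model. At 9 months edgeR called 0 of the 7 genes between 5xFAD and WT, where 1.99% of 14604 genes were called. One had an unadjusted p under 0.05, as did 11.2% of all genes, and DESeq2 called 1 where it called 11.1% of genes. In both cases the gene was Slco2b1. Slco2b1 was at 964 ± 119 CPM in 5xFAD and 2134 ± 244 CPM in WT (SD, n = 3), without overlap, and its log2 fold change was -0.79 (SE 0.198, adjusted p = 0.0681 in edgeR). P3h2 (61.4 ± 17.3 against 123 ± 15.1 CPM) and Rtn4rl1 (239 ± 42.4 against 460 ± 46.4 CPM) did not overlap either, as was so for 29.1% of all genes in that direction. Klk8 was at 179 ± 34.9 against 105 ± 25.01 CPM, above every WT library, as were 14.4% of genes. Spint1, Upk1b and Tnfrsf17 overlapped between the groups.
A fit of only these 6 libraries called 4 of the 7, Klk8 higher and P3h2, Slco2b1 and Rtn4rl1 lower, but it called 4546 of all genes (43.5%). Of the pathway lists only tetraspanins gave calls between these groups, with Cd63 and Cd9 higher in 5xFAD (2 of 11). TMM scaling shifted all genes by 0.35 on the log2 scale relative to total counts here, so that CPM ratios and log2 fold changes differ by about that amount. Sex-linked RNA differed between these groups despite the labels: the WT libraries held 275 to 307 CPM of 4 Y-linked genes, 2 of the 5xFAD libraries held none with Xist at 76.2 and 104 CPM, and the third held 156 CPM. The same WT and 5xFAD libraries were the controls of the germline nulls at 9 months. The part of sex in the values of either comparison was not tested.

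**Figure D5:**
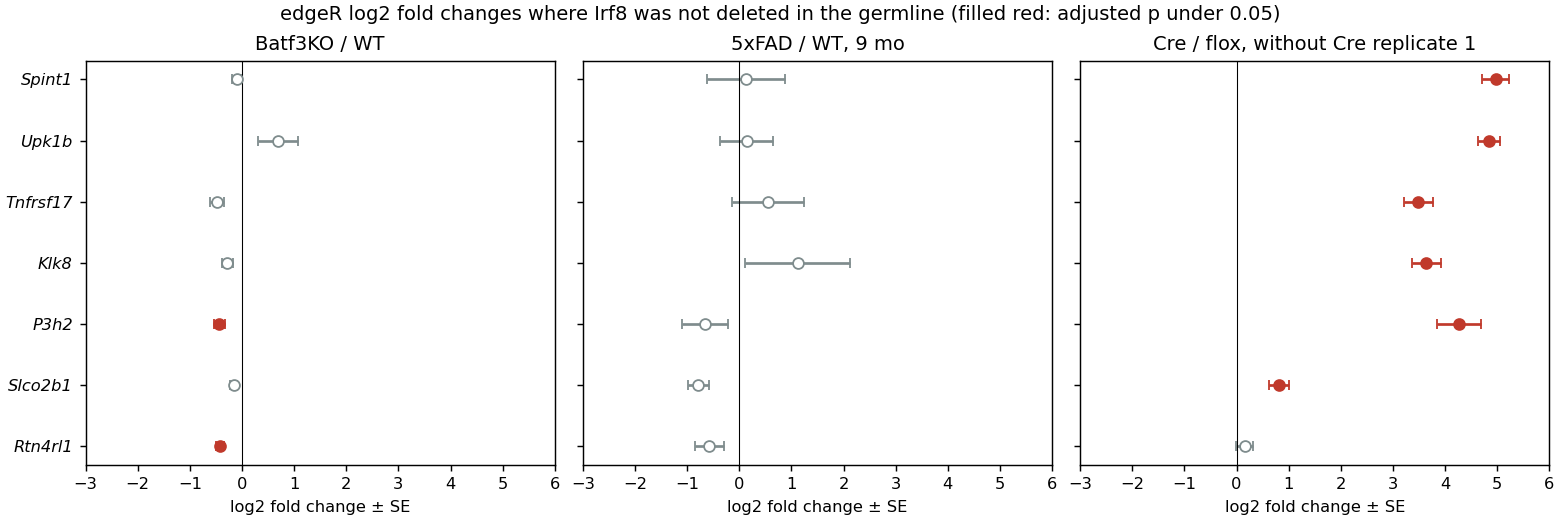
Log2 fold changes with standard errors from edgeR for the 7 genes in Batf3KO against WT, 5xFAD against WT at 9 months, and the libraries labelled Cre against flox without Cre replicate 1 (filled red for adjusted p under 0.05). In the third panel 5 genes lie between 3.49 and 4.97 and Rtn4rl1 at 0.16, while no gene in the first lies beyond 0.69.

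Genes beside the 7 were examined within 100 kb. There 13 other genes had at least 5 CPM in WT at 3 months, and none was called or lay at or under 2% of WT in IRF8KO, the lowest being at 28.8%. At 9 months the 17 neighbours had a median log2 fold change of -2.27 against 0.25 over all genes, 7 of them were called lower, where 8.68% of all genes were, and 1 was at or under 2%, Gm10605 (26093 bases from Slco2b1, at 1.54%). In 5xFAD/IRF8KO the median of 16 was -0.96 against 0.24, 4 were called lower, against 9.72% of all genes, and Gm10605 was at 0. Neighbours were kept for at least 5 CPM in the control group, a limit that the values over all genes did not have. The neighbours and all genes were thus not chosen alike, and their difference cannot be read as a trait of these regions. B4galt4, a galactosyltransferase gene 4135 bases from Upk1b, fell from 188 to 12.5 CPM at 9 months and from 202 to 11.9 CPM in 5xFAD/IRF8KO. Without Cre replicate 1, 6 of 17 neighbours were called higher in the libraries labelled Cre, against 3.74% of all genes, and none lower. Gm34280, which overlaps Slco2b1, was among the 6. Tpbgl and Gm10605 near Slco2b1 were at 244% and 247% of the flox mean. Of the 7 genes 3 lie on chromosome 16, with P3h2, Upk1b and Tnfrsf17 starting at bases 25959288, 38773184 and 11313812.

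Across the 33 libraries, which share experiments and marker content, the log2 levels of the genes correlated with each other at Pearson's r of 0.73 (Klk8 and Rtn4rl1) to 0.97 (Slco2b1 and Rtn4rl1). Of 12863 other genes, the 10 most like their mean profile were Adora3 (an adenosine receptor, r = 0.98), Kcnd1 (0.97), Lag3 (0.96), 0610040J01Rik (0.96), Fam89a (0.96), E230029C05Rik (0.95), Pld4 (0.95), Tmem173 (STING, 0.95), Bin1 (0.95) and Zfp385a (0.95). The microglial factor Sall1 ranked 21 (r = 0.94), Irf8 itself 439 (0.79) and Batf3 755 (0.74). By rank correlation only 3 of the 10 remained among the 10 most alike. Adora3 and E230029C05Rik also lay close to the limit in the germline nulls, at 2.42% and 2.48% of the control in their highest group. The 33 libraries include the germline nulls and controls by which the genes were chosen. The correlations and the ranking of like genes therefore follow in part from that choice.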

How the data were processed

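The authors deposited raw, whole-number read counts for each gene. Per the submitters' processing notes, STAR 2.5.2b, Picard 2.17.11, Subread and bcl2fastq were used with build mm10. Read pairs are not molecules, since the SMART-Seq libraries carry no molecular identifiers. The column that ignores strand was used. It placed 47.3% to 78.6% of reads in genes, and depth was 605376 to 18357762 counts per library. Symbols and coordinates came from GENCODE M21 (GRCm38, 1-based), where 54079 of 54146 identifiers matched without version.

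Samples were grouped by title and genotype label. Genes were tested with edgeR 4.0.16 (filterByExpr, TMM, quasi-likelihood test, Benjamini-Hochberg, adjusted p under 0.05) in R 4.3.3, with DESeq2 1.42.0 as an alternative. The 9-month libraries shared 1 model, and each other experiment was fitted alone. The edgeR fits were tested on simulated counts. Levels are plain CPM, and log2 CPM for correlations had a pseudocount of 1. The labels say that microglia came from each brain but not which animal gave which library, so p-values measure the spread between libraries.

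The members and gene lists were chosen with earlier results of these data known. The text names the members, Irf8 and Batf3, called genes of the 6 pathway lists (up to 6 a list, by adjusted p), neighbours within 100 kb, the 10 genes most alike, and every gene meeting the limit of 2% with those nearest to it. Alternatives were other scalings and filters, DESeq2, a replicate block, larger or smaller models and leaving out each library. Scaling by total counts alone was added after seeing the data. Promoter sequences are RefSeq's (GRCm38.p6), with the 250 bases before the start used.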

Additional observations from a re-analysis of the deposited data

Results flagged for a closer look

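In the groups of 4 libraries, 18 sets of values were examined for a library far from the rest, and 6 were found. The test passes about 5% of sets by chance. Of these 3 were in the library labelled Cre replicate 1, which was low for Spint1 (1.80 CPM), Upk1b (2.58 CPM) and Rtn4rl1 (84.1 CPM). IRF8KO replicate 4 at 3 months stood above the other IRF8KO libraries for Klk8 (1.51 CPM) and P3h2 (1.85 CPM), in both cases still under every WT library. WT replicate 1 at 3 months was high for Tnfrsf17 (48.6 CPM).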

How the results depend on the processing

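No direction of a called value was reversed under any alternative that was run. Of the 7 genes this covers only P3h2 and Rtn4rl1 in Batf3KO, the 2 called in the main fits. Signs of uncalled genes did change, as for 5xFAD 4 of the 7 were above 0 in the main fit and 2 with total counts. Of the levels in percent of control, 293 alternatives stayed within the spread between libraries and 8 moved, 7 of them under scaling by microglial markers. Pairs with 0 counts in the null group could not move under any scaling. Leaving out 1 library gave 305 to 1128 genes called for IRF8KO at 3 months (970 with all), 2266 to 4576 at 9 months (4136), 2325 to 4598 for 5xFAD/IRF8KO (4054), 219 to 596 for Batf3KO (503), 0 to 952 for Cre (0) and 2 to 364 for 5xFAD (290). Of the 7 genes it called 0 to 2 for Batf3KO, 0 to 6 for Cre and 0 to 1 for 5xFAD. DESeq2 called 2581 genes at 3 months and 822 for Batf3KO (3 of the 7, with Tnfrsf17 added). It called 160 for Cre (3 of the 7) and 830 for 5xFAD (1 of the 7). Without a filter on low counts 1655, 998 (3 of the 7, with Upk1b higher), 618 (5 of the 7) and 163 genes were called in these comparisons. One model of all 33 libraries called 3300 genes at 3 months, 6836 at 9 months, 6783 for 5xFAD/IRF8KO, 10 for Batf3KO (0 of the 7), 3 for Cre and 806 for 5xFAD. The 6 libraries alone gave 4546 for 5xFAD (4 of the 7), DESeq2-type size factors 1 of the 7, and total counts without TMM factors 25 genes. Scaling by total counts shifted all genes by -0.37 at 9 months, -0.35 for 5xFAD, -0.11 for 5xFAD/IRF8KO and 0.12 at 3 months on the log2 scale. The share of higher calls moved with it from 56.2% to 66.1% at 3 months, from 69.3% to 56.8% at 9 months while for 5xFAD it moved from 91.0% to 10 of the 25 calls. The cause of these changes was not tested.

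Replicate numbers did not pair the libraries, as deviations of same-numbered libraries correlated at -0.153 to 0.167. With a replicate block 216 genes were called for Batf3KO (0 of the 7) and 105 for 5xFAD, while 0 were called for Cre and 988, 3407 and 3332 in the germline comparisons. Depth limits the zeros: 3 counts over IRF8KO at 9 months equal 0.127 CPM.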
